A study of Mus musculus with 4 samples.

Results

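The genes described here are the ligands and receptors of the epidermal growth factor (EGF) family, 10 genes of the 23235 in each deposited table. The 6 ligand genes are Areg (amphiregulin), Ereg (epiregulin), Hbegf (heparin-binding EGF-like growth factor), Btc (betacellulin), Egf and Tgfa (transforming growth factor alpha), and the 4 receptor genes are Egfr, Erbb2, Erbb3 and Erbb4. They were taken by gene symbol from both tables, with no filter on their values, and all 10 were found in both. The choice of genes was made with earlier results of these data known. Expression had been measured by RNA sequencing in the uterus of mice mated with vasectomized males, so that they were pseudopregnant and carried no embryos, on day 4. Luminal epithelium, the cell layer facing the uterine cavity, and the stroma beneath it were cut out by laser capture. Each compartment gave 1 library from a control uterus of genotype Msx1f/f/Msx2f/f, in which both homeobox genes carry floxed alleles, and 1 library from a uterus of genotype Msx1d/d/Msx2d/d, labelled as a uterine-specific knockout. Both genotypes carried modified Msx1 and Msx2 alleles, and the series describes 1 mouse per genotype. Neither the promoter driving the deletion nor the age of the mice is given in the labels.

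EGF family ligands are made as membrane-bound precursors that proteases release, and each folds into a compact domain held by disulfide bonds that engages an ErbB receptor. Bound receptors pair with each other and start kinase signalling through RAS and ERK, AKT and STAT proteins. ErbB2 has no known ligand and serves as a partner, while ErbB3 has a weak kinase and signals through its partners. In the mouse uterus, amphiregulin is known as a progesterone-induced product of the luminal epithelium before implantation, and heparin-binding EGF-like growth factor as a signal at the site where a blastocyst attaches.

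The unit is RPKM, a read count divided by the length of the transcript and the size of the library, so levels of different genes can be compared within a library. With 1 library per group there is no replicate, and a difference between genotypes cannot be told apart from a difference between mice or captures. Limits given in brackets are 95% counting limits on reads estimated from the RPKM themselves. They cover counting error only and are approximate. The estimated depth was 6.24 M reads in the luminal epithelium control, 90.7 M in its labelled knockout, 42.7 M in the stroma control and 62.5 M in the stroma labelled knockout, so the luminal epithelium control was 14.5 times shallower than its partner. Of the targeted genes in luminal epithelium, Msx1 had 23.2 RPKM in control against 13.6 in the labelled knockout and Msx2 had 1.31 against 2.06, the latter against the label, and the deleted exons were not given. The libraries are therefore called labelled knockout throughout. Both controls list 0 for Rpl26, which every cell uses for its ribosomes and which was picked with its values in view, so a 0 in these tables does not show that a gene was silent. All 10 general epithelial markers were at least 2-fold higher in luminal epithelium and all 12 stromal markers at least 2-fold higher in stroma, in both genotypes. The markers of luminal epithelium itself were less uniform. In controls, 6 of 7 were at least 2-fold higher there and 1 at least 2-fold lower. In labelled knockouts 6 averaged 1 RPKM or more, of which 5 were higher and 1 lower. Il13ra2, another of that list's markers, was listed at 0 in control luminal epithelium.

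The sequences just upstream of 3 member genes are shown because these genes stand for distribution patterns described below. They are Areg, the leading ligand of luminal epithelium, Erbb2, a receptor higher there, and Egfr, a receptor seen in both compartments. Ereg, Hbegf and Erbb3 had no promoter entry in the reference and could not be shown. Each run is the 250 bases before the annotated start from RefSeq on GRCm38.p6, a different build from the mm9 coordinates of the tables. The windows are chr5:91139349-91139598 for Areg, chr11:98412234-98412483 for Erbb2 and chr11:16751953-16752202 for Egfr, all on the plus strand.
Areg: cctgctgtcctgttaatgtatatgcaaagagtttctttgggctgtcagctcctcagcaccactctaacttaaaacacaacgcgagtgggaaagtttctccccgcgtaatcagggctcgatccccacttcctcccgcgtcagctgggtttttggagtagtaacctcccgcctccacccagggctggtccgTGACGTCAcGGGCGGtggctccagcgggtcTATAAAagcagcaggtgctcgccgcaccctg
Erbb2: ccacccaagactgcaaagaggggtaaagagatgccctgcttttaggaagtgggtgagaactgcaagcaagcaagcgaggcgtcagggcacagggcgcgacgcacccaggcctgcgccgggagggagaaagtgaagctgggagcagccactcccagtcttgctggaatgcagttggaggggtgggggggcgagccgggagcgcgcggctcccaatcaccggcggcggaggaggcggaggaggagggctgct
Egfr: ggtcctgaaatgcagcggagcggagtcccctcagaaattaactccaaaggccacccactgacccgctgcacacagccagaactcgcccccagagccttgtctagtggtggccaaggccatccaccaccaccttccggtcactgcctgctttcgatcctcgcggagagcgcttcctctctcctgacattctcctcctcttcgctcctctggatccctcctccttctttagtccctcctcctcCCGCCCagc
Capitals mark matches, on either strand, to 5 motifs: a TATA box (TATAAA), a cAMP response element (TGACGTCA), a GC box (GGGCGG), a homeodomain core (TAATTG) and a progesterone receptor half-site (TGTTCT). The Areg window held a cAMP response element that began 61 bases before the start, a GC box at 52 bases and a TATA box at 31 bases, none overlapping another. The same cAMP response element was found in 1.55% of the 32851 promoter windows in the reference, the TATA box in 12.4% and the GC box in 32.7%. The Egfr window held 1 GC box, on the other strand at 9 bases, and the Erbb2 window held none of the 5 motifs. The homeodomain core, found in 7.17% of all windows, and the half-site, found in 16.1%, were not in the windows of the 7 members that had an entry. A match or its absence describes these letters only.

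Areg was the leading ligand of the luminal epithelium and was not seen in stroma. In luminal epithelium Areg (chromosome 5, 91568641 to 91577458, mm9) had 6.73 RPKM in control and 6.93 in the labelled knockout, and both stroma libraries listed it at 0. It stood higher than 89.1% of the genes listed above 0 in control luminal epithelium and higher than 89.5% in the labelled knockout. Among the 6 ligands it made up 81.1% of the summed RPKM in control luminal epithelium and 71.5% in the labelled knockout. The ratio between genotypes was 1.03, with limits that include equal levels and an upper one of 1.43, and under 3 other scalings of the libraries it lay between 0.870 and 0.940, so its direction depended on the scaling. General epithelial markers were also sparse in the stroma libraries, where their summed level was 0.402% of that in luminal epithelium for the controls and 0.108% for the labelled knockouts.

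Areg lies in a run of 4 EGF family genes on chromosome 5, between 91456543 and 91832020 (mm9), a span of 375 kb. RefSeq lists no other protein-coding gene wholly inside the matching span of GRCm38.p6. The neighbours of Areg were far lower in the same luminal epithelium libraries. Ereg, which encodes a ligand for EGFR and ErbB4, had 0.137 RPKM in control, about 3 reads, and 0.0735 in the labelled knockout, and was listed at 0 in both stroma libraries. Btc, whose product also binds EGFR and ErbB4, was at 0.0649 RPKM, about 1 read, and 0.188 RPKM in luminal epithelium, and at 0.00987 RPKM and 0 in stroma. Epgn, which encodes epigen and belongs to the wider family, was listed at 0 and at 0.0297 RPKM in luminal epithelium and at 0.0677 RPKM and 0 in stroma. One gene of the run was therefore well represented in luminal epithelium and the other 3 stayed below 0.2 RPKM in all 4 libraries.

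Hbegf was higher in the labelled knockout library of luminal epithelium than in its control. Hbegf (chromosome 18, 36664581 to 36675459) had 0.473 RPKM in control, about 6 reads, and 1.58 in the labelled knockout, about 312 reads. The level was 3.34-fold higher in the labelled knockout (limits 1.63 and 9.83), and 2.82-fold to 3.05-fold higher under the 3 other scalings. In stroma it had 0.187 RPKM in control and 0.130 in the labelled knockout, a ratio whose limits of 0.352 and 1.49 include equal levels. Its share of the ligand sum in luminal epithelium was 5.70% in control and 16.3% in the labelled knockout. Leukocyte markers summed to 16.7 RPKM in luminal epithelium of the control and 3.38 in that of the labelled knockout. Of those 11 markers 2 averaged 1 RPKM or more, both at least 2-fold lower in the labelled knockout, and Cd3e was listed at 0 in control. Their part in the Hbegf difference was not tested. With 6 reads in the shallow control, the size of the Hbegf difference is poorly fixed.

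Tgfa and Egf completed the ligands. Tgfa (chromosome 6, 86145245 to 86225443), which encodes an EGFR ligand, was at 0.897 and 0.884 RPKM in luminal epithelium, control and labelled knockout, a ratio of 0.985 (limits 0.658 and 1.57). In stroma it had 0.286 RPKM in control and 0.106 in the labelled knockout, 2.69-fold lower (limits 1.67 and 4.36). In those stroma libraries the general epithelial marker sum was 1.77 and 0.549 RPKM, with all 10 markers below a mean of 1 RPKM and Krt7 listed at 0 in control. The leukocyte marker sum was 120 and 53.3 RPKM with none of the 11 markers at 0, and the glandular marker sum was 0.560 and 0.0651 RPKM with Prss29 listed at 0 in control and Foxa2, Spink3, Prss29 and Ttr, 4 of 6 markers, in the labelled knockout. The part of these cell types in the Tgfa difference was not tested, and in tissue captures fewer cells of a type and less RNA per cell cannot be told apart. Egf (chromosome 3, 129380493 to 129466800), which encodes the founding ligand, was listed at 0 in luminal epithelium of the control and at 0.0418 RPKM in that of the labelled knockout. In stroma Egf was at 0.0591 and 0.0171 RPKM, about 12 and 5 reads.

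**Figure D1:**
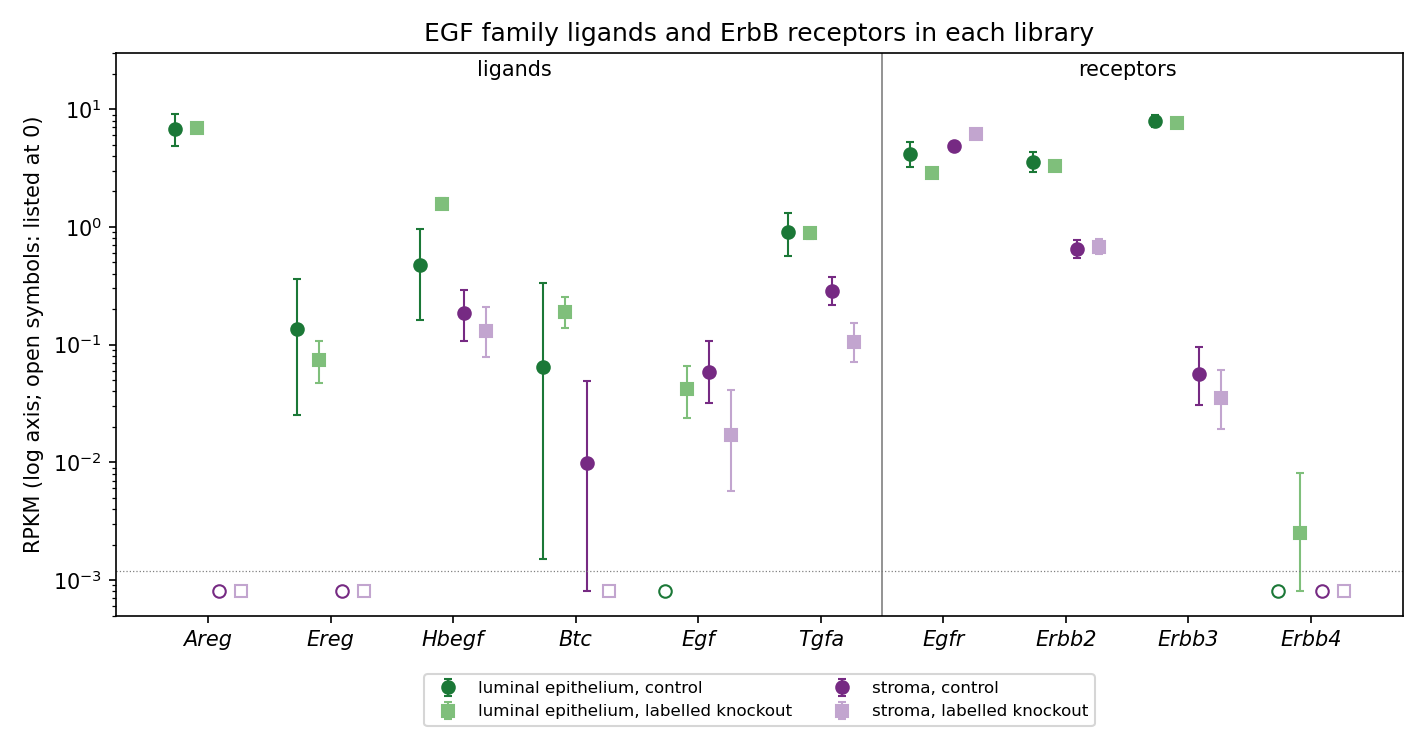
RPKM on a log axis of the 10 genes in each of the 4 libraries, with vertical lines for the 95% counting limits and open symbols at the bottom for genes listed at 0. Areg and Erbb3 lie between 6.73 and 7.96 RPKM in both luminal epithelium libraries and far lower or at 0 in stroma, while Egfr lies between 2.87 and 6.10 RPKM in all 4 libraries.

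The receptors divided by compartment. Erbb3 had the highest listed level of the 10 genes in luminal epithelium and was nearly missing from stroma, Egfr was present in both, Erbb2 was present in both but higher in luminal epithelium, and Erbb4 was at or near 0 throughout. Erbb3 (chromosome 10, 128006424 to 128026557), which encodes the neuregulin-binding receptor with a weak kinase, had 7.96 RPKM in luminal epithelium of the control and 7.62 in that of the labelled knockout. In stroma it was at 0.0567 and 0.0352 RPKM, control and labelled knockout, lower than in either luminal epithelium library. Luminal epithelium exceeded stroma 140-fold in controls (limits 82.7 and 261) and 217-fold in labelled knockouts (limits 124 and 400), a comparison that sets levels across tables the authors may have normalized separately. Under the 3 other scalings the excess was 94.2-fold to 119-fold in controls and 140-fold to 165-fold in labelled knockouts. Erbb3 in stroma was 0.713% of its luminal epithelium level in controls, beside 0.402% for the epithelial marker sum, and 0.462% beside 0.108% in labelled knockouts, and the part of epithelial cells in it was not tested.

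Erbb2 (chromosome 11, 98273798 to 98300302) was at 3.56 and 3.32 RPKM in luminal epithelium and 0.646 and 0.682 RPKM in stroma, control and labelled knockout. Luminal epithelium exceeded stroma 5.51-fold in controls (limits 4.22 and 7.15) and 4.86-fold in labelled knockouts (limits 4.20 and 5.65). Under the 3 other scalings the excess was 3.70-fold to 4.68-fold in controls. In labelled knockouts it was 3.14-fold to 3.70-fold, below the counting limits, which do not cover scaling. The stroma level was 18.1% and 20.6% of that in luminal epithelium, beside 0.402% and 0.108% for the epithelial marker sum, and the part of epithelial cells in it was not tested. Erbb4 (chromosome 1, 68086540 to 69154633), which encodes a receptor for neuregulins and for several EGF ligands, was listed at 0 in 3 libraries and at 0.00253 RPKM, about 3 reads, in labelled knockout luminal epithelium.

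Egfr (chromosome 11, 16652206 to 16813910), the receptor of amphiregulin, EGF and TGF-alpha, had 4.14 RPKM in luminal epithelium of the control and 2.87 in that of the labelled knockout. In stroma it had 4.89 RPKM in control and 6.10 in the labelled knockout. The luminal epithelium level was 1.44-fold lower in the labelled knockout (limits 1.11 and 1.84), and the stroma level 1.25-fold higher (limits 1.13 and 1.39). The directions held under the 3 other scalings, with ratios of 0.587 to 0.634 in luminal epithelium and 1.16 to 1.17 in stroma. These limits use the shorter of the 2 Egfr transcripts, 2943 bases against 10208, which the tables report as 1 gene. Stromal markers summed to 14.4 and 5.76 RPKM in luminal epithelium and 396 and 560 RPKM in stroma, control and labelled knockout, and no stromal marker was listed at 0. Of the 12 markers, 4 were kept in luminal epithelium, all 4 lower in the labelled knockout, and in stroma 7 were higher and 5 lower, with a median log2 difference of 0.07, beside 0.07 for all kept genes. In control luminal epithelium that sum was 3.64% of the stroma sum and Egfr was at 84.7% of its stroma level, and in labelled knockouts the figures were 1.03% and 47.1%. The part of stromal cells in the Egfr values was not tested.

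Receptor make-up therefore differed between compartments. Erbb3 accounted for 50.8% and 55.2% of the summed receptor RPKM in luminal epithelium, control and labelled knockout. Erbb2 accounted for 22.7% and 24.0% there and Egfr for 26.4% and 20.8%. In stroma Egfr alone made up 87.4% and 89.5%, with Erbb2 at 11.6% and 9.99%. Summed ligand RPKM was 8.30 and 9.70 in luminal epithelium and 0.541 and 0.253 in stroma, and summed receptor RPKM was 15.7 and 13.8 in luminal epithelium and 5.59 and 6.82 in stroma. The ligand sum was thus 15.3-fold higher in luminal epithelium than in stroma for controls and 38.4-fold higher for labelled knockouts, against 2.80-fold and 2.03-fold for the receptor sum. These sum ratios have no counting limits and were not computed under the other scalings, which lowered the single-gene ratios between compartments. The stroma ligand sums rest on few reads, about 53 and 29 for Tgfa and 17 and 18 for Hbegf, control and labelled knockout.

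**Figure D2:**
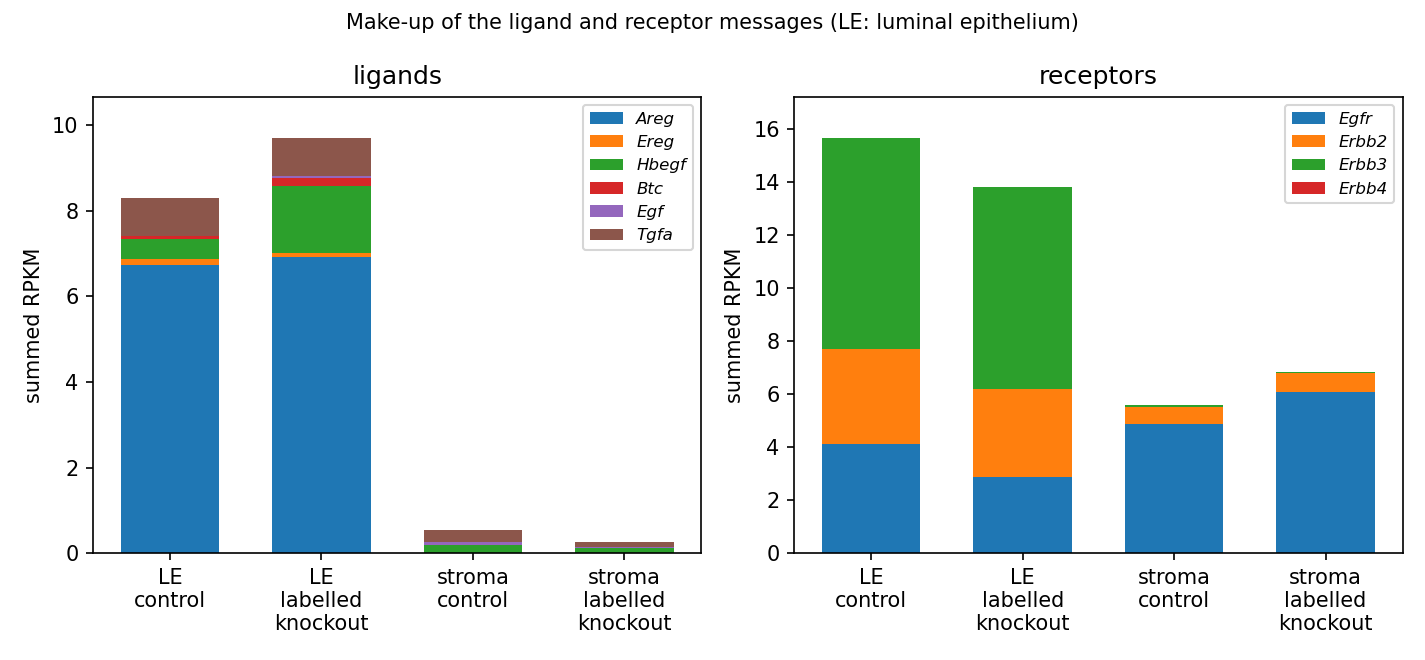
Stacked bars of RPKM for the 6 ligands and the 4 receptors in each library, without error bars because each group has 1 library. Ligand sums reach 8.30 and 9.70 RPKM in luminal epithelium and stay under 1 RPKM in stroma, and Egfr makes up most of the stroma receptor sum.

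The order of the levels was compared within each library by the counting limits. In control luminal epithelium Erbb3, Areg, Egfr and Erbb2 came first, each overlapping the next, and Erbb2 was apart from Tgfa below it. In labelled knockout luminal epithelium the order was Erbb3, Areg, Erbb2, Egfr, Hbegf, Tgfa and Btc, and all neighbours in that run were apart except Erbb3 and Areg. That library was 14.5 times deeper than its control, which narrows its limits, so the overlaps cannot be compared between genotypes. In both stroma libraries Egfr was first and Erbb2 second, each apart from the next. Tgfa and Hbegf followed with overlapping limits, Tgfa above Hbegf in control and below it in the labelled knockout.

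Members were then set against all genes. A gene was kept when its mean over the libraries compared was at least 1 RPKM, and was counted as apart when log2((RPKM + 1)/(RPKM + 1)) was at least 1 in size, a scale that understates differences of low genes. In luminal epithelium 5 of the 10 members were kept, Areg, Hbegf, Egfr, Erbb2 and Erbb3, and none was apart between genotypes, where 7.02% of 7736 kept genes were, 5.03% higher and 1.99% lower. Their median log2 difference was -0.06, against 0.10 for all kept genes, and the differences ran from -0.41 for Egfr to 0.81 for Hbegf. Hbegf passed the minimum only through the labelled knockout library, and fell below it under the 3 other scalings. Hbegf stood at percentile 92.9 of all kept differences and Egfr at percentile 8.97, while Areg, Erbb2 and Erbb3 lay between percentiles 29.2 and 42.4. With a pseudocount of 0.1 RPKM, 1 member, Hbegf, was apart. In stroma Egfr alone was kept, with a log2 difference of 0.27 at percentile 85.4, and was not apart, where 3.04% of 7723 kept genes were, 1.45% higher and 1.59% lower.

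The authors' deposited table tested 6 members in luminal epithelium and 2 in stroma and marked none significant. The lowest q-value among them in the authors' deposited table was 0.662, for Hbegf in luminal epithelium. That test sets 1 library against 1 other and says nothing of variation between mice.

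**Figure D3:**
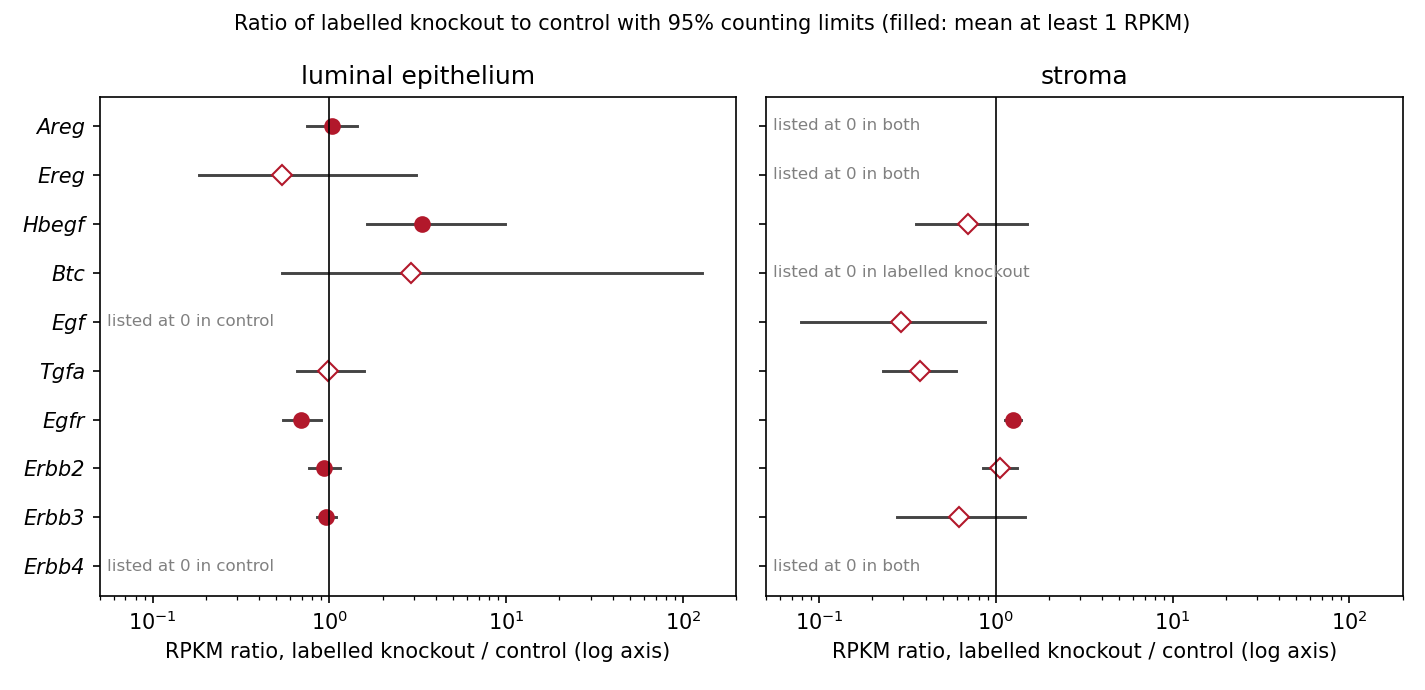
Ratio of RPKM, labelled knockout over control, on a log axis with 95% counting limits, in luminal epithelium on the left and stroma on the right, with filled symbols for a mean of at least 1 RPKM. The limits leave out equal levels for Hbegf and Egfr in luminal epithelium and for Egf, Tgfa and Egfr in stroma.

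Between compartments, 4 members were kept in each genotype, and Areg, Erbb2 and Erbb3 were apart, all higher in luminal epithelium. Areg, Erbb2 and Erbb3 passed the minimum only through luminal epithelium, so their direction and percentiles were partly fixed by that minimum. Of all kept genes 31.7% were apart in controls, 19.6% in that direction and 12.1% in the other, and 31.4% in labelled knockouts, 20.7% in that direction and 10.7% in the other. Areg and Erbb3 lay at percentiles 97.3 and 97.6 of the differences in controls and 96.7 and 96.8 in labelled knockouts, and Erbb2 at 88.8 and 86.0. Egfr was not apart, with log2 differences of -0.20 and -0.87. In labelled knockouts Egfr became apart, lower in luminal epithelium, under each of the 3 other scalings and with the smaller pseudocount, and Erbb2 fell just short at 0.99 when the libraries were scaled to their upper quartile. Hbegf and Tgfa were below the minimum, yet their RPKM were 12.2-fold (limits 7.43 and 20.4) and 8.34-fold (limits 5.64 and 12.5) higher in luminal epithelium among labelled knockouts, and 2.53-fold (limits 0.779 and 6.41) and 3.14-fold (limits 1.83 and 5.10) among controls. Under the 3 other scalings these ratios were 7.86 to 9.28 and 5.38 to 6.35 among labelled knockouts. Among controls they were 1.70 to 2.15 and 2.11 to 2.67.

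The other ligands of the family were low except Nrg4. Of Epgn and the neuregulin genes Nrg1 to Nrg4, whose products mostly bind ErbB3 and ErbB4, 1 of 5 was kept in luminal epithelium and none in stroma. Nrg4, which encodes an ErbB4 ligand, had 1.78 RPKM in luminal epithelium of the control and 1.08 in that of the labelled knockout, a ratio whose limits of 0.382 and 1.05 include equal levels, and it was at 0.294 and 0.352 RPKM in stroma. Nrg1, which encodes a ligand of ErbB3, was listed at 0 and at 0.111 RPKM in luminal epithelium and at 0.0244 and 0.227 RPKM in stroma.

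The 13 genes that release or bind the ligands were counted in the same way. None of the 8 kept in luminal epithelium and none of the 11 kept in stroma was apart between genotypes, with medians of 0.02 and 0.11 beside 0.10 and 0.07 for all kept genes. Between compartments in controls, 2 of 12 were apart higher in luminal epithelium and 3 lower, beside 19.6% and 12.1% of all kept genes. Cd9, a tetraspanin that associates with membrane-bound HB-EGF and chosen after its values were seen, was at 67.6 and 72.9 RPKM in luminal epithelium and 5.94 and 4.83 RPKM in stroma. Sdc4, a heparan sulfate proteoglycan, was at 35.3 and 27.5 RPKM in luminal epithelium and 3.13 and 5.18 RPKM in stroma, whereas its relative Sdc1 was at 0.576 and 0.581 RPKM in luminal epithelium and 3.14 and 5.49 RPKM in stroma. Adam9, a membrane protease, was at 2.30 and 3.90 RPKM in luminal epithelium, 1.70-fold higher in the labelled knockout (limits 1.30 and 2.27). Adam12, a protease that can release HB-EGF, was at 0.0824 and 0.0532 RPKM in luminal epithelium and 5.86 and 7.97 RPKM in stroma.

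Among 18 inhibitors and trafficking factors of the receptors, 15 were kept in luminal epithelium, where 1 was apart higher and none lower, beside 5.03% and 1.99% of all kept genes, and 14 in stroma, where none was apart, beside 3.04%. The medians were 0.05 and 0.04, below those of all kept genes. Lrig1, a transmembrane protein that promotes loss of ErbB receptors, had 1.91 RPKM in luminal epithelium of the control and 6.25 in that of the labelled knockout, 3.26-fold higher, with an upper limit of 4.30. In stroma Lrig1 was at 0.894 and 1.34 RPKM, a ratio with a lower limit of 1.25. Errfi1, which encodes the EGFR kinase inhibitor MIG6, was at 6.10 and 11.8 RPKM in luminal epithelium, 1.94-fold higher (limits 1.61 and 2.38), and at 5.10 and 6.43 RPKM in stroma. Lrig3, a relative of Lrig1, was at 0.0778 and 0.783 RPKM in luminal epithelium, about 2 reads in control, and at 1.05 and 2.09 RPKM in stroma. Rnf41, a ubiquitin ligase acting on ErbB3, was at 2.12 and 3.12 RPKM in luminal epithelium and at 1.06 and 1.11 RPKM in stroma. These 4 were named for the size of their difference, so they stand for no trend of the list.

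Of the adaptors and kinases downstream of the receptors, 24 were kept in luminal epithelium, where 1 was apart higher and none lower, a share near the 5.03% and 1.99% of all kept genes. In stroma 21 were kept and none was apart, beside 3.04% of all kept genes. The medians were 0.05 in both compartments, against 0.10 and 0.07 for all kept genes. Stat5a, a transcription factor activated by ErbB and cytokine receptors, had 2.48 RPKM in luminal epithelium of the control and 12.1 in that of the labelled knockout, 4.87-fold higher (limits 3.70 and 6.49). Its close relative Stat5b was at 2.54 and 5.92 RPKM, 2.33-fold higher (limits 1.86 and 2.97), and the genes are similar enough that reads may be split between them. In stroma Stat5a was at 0.767 and 0.717 RPKM and Stat5b at 1.58 and 1.39 RPKM. Braf, the kinase below RAS, was at 8.82 and 5.95 RPKM in luminal epithelium, 1.48-fold lower in the labelled knockout (limits 1.35 and 1.62).

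Of 18 genes that respond to ERK signalling, 7 were kept in luminal epithelium, with 1 apart higher and 1 apart lower, beside 5.03% and 1.99% of all kept genes. Their median was 0.38, against 0.10 for all kept genes. In stroma 5 were kept and none was apart, beside 3.04%, with a median of 0.20 against 0.07. Ier3, an early response gene, was at 3.43 and 10.8 RPKM in luminal epithelium, 3.14-fold higher in the labelled knockout (limits 2.02 and 5.15), and at 0.839 and 0.876 RPKM in stroma. Etv5, an ETS transcription factor, was at 7.77 and 0.812 RPKM in luminal epithelium, 9.56-fold lower with lower limit 7.89, and at 0.602 and 0.530 RPKM in stroma. Fos was at 1.86 and 3.32 RPKM in luminal epithelium, 1.78-fold higher (limits 1.18 and 2.89), and the feedback inhibitor gene Spry2 at 1.55 and 2.33 RPKM, with limits of 0.953 and 2.60 that include equal levels. Leukocyte and stromal marker sums were lower in the same labelled knockout library, as given above, and their part in these differences was not tested.

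**Figure D4:**
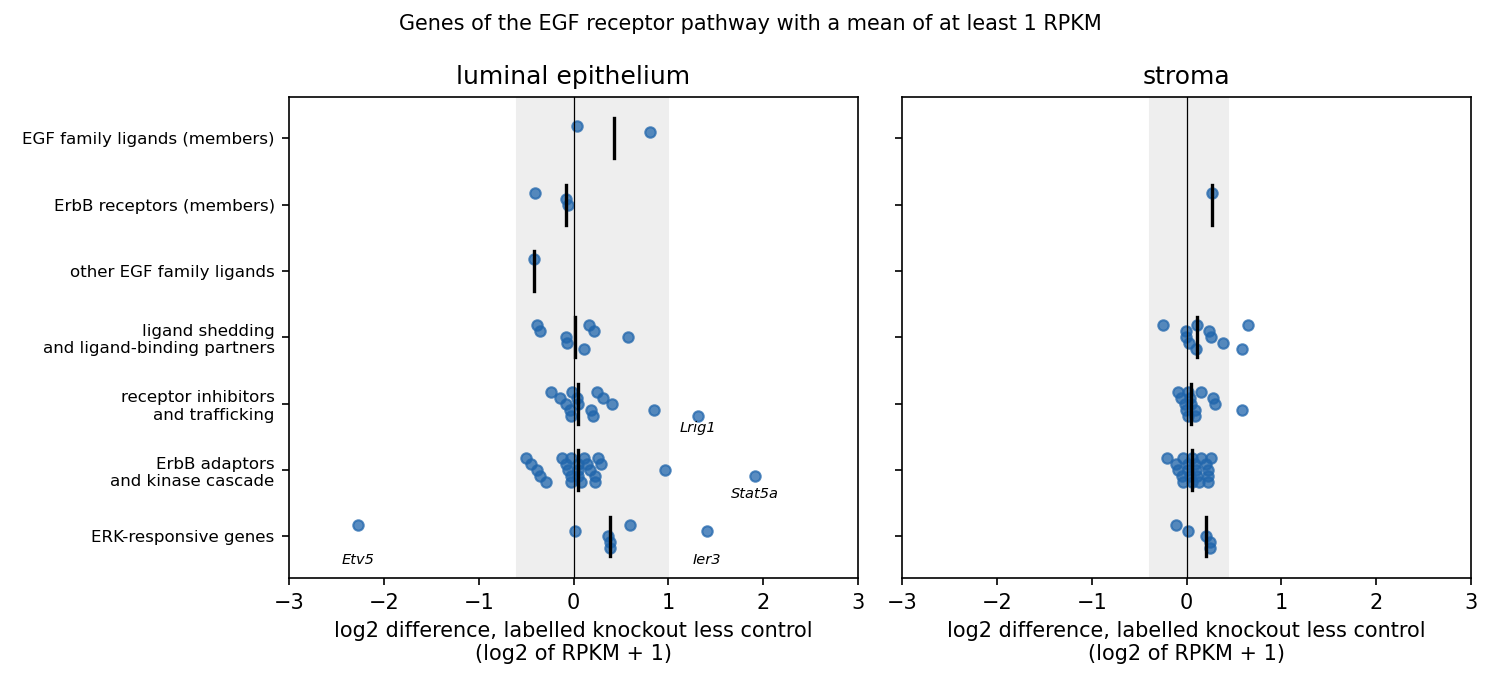
Points are genes averaging 1 RPKM or more, placed by log2 difference between labelled knockout and control, with a black bar at each list's median and a grey band from the 5th to the 95th percentile of all kept genes. In luminal epithelium Lrig1, Stat5a and Ier3 lie above 1 and Etv5 below -1, and in stroma no gene of these lists reaches 1 in size.

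The genes whose profile over the 4 libraries lay nearest to that of Areg were sought among 7543 others, by the Euclidean distance between profiles of log2(RPKM + 1), each less its own mean. The 5 nearest were Rac3, a small GTPase, Grhl2, an epithelial transcription factor, Dlx5, a homeobox factor, Naip6 and the zinc transporter gene Slc39a2, at distances of 0.04 to 0.09. Dlx5 was at 7.02 and 7.50 RPKM in luminal epithelium and listed at 0 in both stroma libraries, and Grhl2 was at 6.53 and 7.34 RPKM in luminal epithelium. Naip6 belongs to a family of similar copies, so its level is uncertain. Nearest to Egfr were Leprel4, Casc4, Letmd1, Ddah2 and Trim59, at distances of 0.05 to 0.14. Ddah2, an enzyme that breaks down methylated arginine, was the one most like Egfr in level, at 4.94 and 3.37 RPKM in luminal epithelium and 5.32 and 7.43 RPKM in stroma. All 5 nearest to Egfr were, like it, lower in the labelled knockout in luminal epithelium and higher in stroma, a likeness the search selects for. With 4 libraries from 2 tables, such likeness rests on few values, and for Areg it mainly orders genes by compartment.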

How the data were processed

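RNA from 4 laser-captured mouse libraries, 1 per group, was analysed from the deposited tables. Per the file headers, the authors deposited RPKM for each library, with p-values and q-values and a log2 ratio and test score of their own comparison (the latter not used). The submitters' processing notes name build mm9, Cufflinks 2.0.2, TopHat2 2.0.5, TopHat and CASAVA 1.8.2, with roles, settings and strand use not given in the sources used here. No replicate exists, so no test was run. Differences used a pseudocount of 1 RPKM, a mean of at least 1 RPKM and a 2-fold size; single-gene ratios used no pseudocount. Depth was the number of reads at which low RPKM times transcript length less 200 bases (GENCODE vM21, for length only) piled up at whole numbers, with 64.1% to 65.4% within 0.2 of one. Ratio limits are exact binomial (Clopper-Pearson) and level limits exact Poisson, at 95%, on rounded estimated reads. Amplified reads are not separate molecules. Starts in the tables were raised by 1, because 4 members had RefSeq's gene length when starts were counted from 0 and 0 when counted from 1. The motif search used the 250 bases before each RefSeq start. Members, lists and rules were chosen with earlier results of these data known. Named genes were all members, up to 4 genes per list with the largest difference between genotypes, and the 5 nearest to Areg and Egfr; 1 gene under this rule is not reported here. Alternatives changed the pseudocount, scaling, minimum, size or gene models used. Steps were tested on simulated data. Summed levels of general epithelial, stromal and leukocyte markers stand in the results. For the other lists, in the order luminal epithelium control, labelled knockout, stroma control, labelled knockout, summed RPKM was 148, 254, 3.11 and 3.77 for luminal epithelial, 0.717, 0.411, 0.560 and 0.0651 for glandular, 0.361, 0.124, 35.7 and 32.7 for endothelial, 4.95, 0.594, 16.0 and 18.6 for smooth muscle, 0.463, 0.0553, 3.71 and 4.26 for mesothelial, and 0.727, 0.631, 0.593 and 0.516 for erythrocyte markers. Software was scipy 1.17.1, pandas 2.3.3, numpy 2.4.6 and matplotlib 3.10.9 under Python 3.11.15.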

Additional observations from a re-analysis of the deposited data

Results flagged for a closer look

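Egfr differed between genotypes in opposite directions in the compartments. The ratio of labelled knockout to control was 0.695 in luminal epithelium and 1.25 in stroma, each with counting limits that leave out equal levels. Differences of this size were common. On the log2 scale, 28.8% of the genes kept for luminal epithelium differed at least as much as Egfr, counting both directions. For stroma the share was 22.2%. The authors' own comparison marked neither Egfr difference significant. The difference between the compartments was not tested, because each group has 1 library. Stromal marker sums were lower in luminal epithelium and higher in stroma of the labelled knockouts. In stroma 7 of the 12 markers were higher and 5 lower, and their median log2 difference was 0.07, beside 0.07 for all kept genes. Their part in the Egfr values was not tested.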

How the results depend on the processing

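Without replicates the stability of a difference between genotypes could not be examined, and the shallow luminal epithelium control limits every low gene there. Other settings were tried on each member count and on the counts over all kept genes. With a pseudocount of 0.1 RPKM, 1 member (Hbegf) was higher in luminal epithelium labelled knockout, against none, and 640 genes were higher and 279 lower, against 389 and 154. With a 1.5-fold size, 1 member (Hbegf) was higher there and the counts were 917 and 394, with 220 and 214 in stroma against 112 and 123. Leaving out the 50 most abundant genes from the scaling gave 232 lower genes in luminal epithelium. Leaving out small RNA and unnamed models gave 257 higher genes there and 33 higher and 39 lower in stroma. Between compartments, 1 member (Egfr) was lower in luminal epithelium of labelled knockouts, against none, with the smaller pseudocount, the 1.5-fold size and all 3 other scalings. Members higher there numbered 4 against 3, with Hbegf added, at a minimum of 0.5 RPKM or with no minimum. They numbered 2, without Erbb2, when scaled to the upper quartile. Genes higher in luminal epithelium numbered 1574 in controls and 1730 in labelled knockouts as deposited, 943 and 1030 when scaled to the upper quartile, 990 and 1093 when scaled to a median difference of 0, and 2757 and 2958 at 1.5-fold. The upper quartile gave 1411 lower genes in labelled knockouts against 890. The scalings moved the median over kept genes, on the log2 scale, by -0.10 to -0.19 in luminal epithelium, -0.06 to -0.08 in stroma and -0.17 to -0.48 between compartments. The other pseudocount and scalings are the settings that can change a member's log2 difference. Judged by counting limits, 128 of 160 such values were counted as the same and 32 as moved, and 0 of those counted as apart changed sign. The 128 include members listed at 0 in both libraries compared, which no setting could move. Some values at the smaller pseudocount were counted as moved yet lay inside the ratio limits of the same member. The count therefore does not measure agreement with counting error. With the longer Egfr transcript, a choice made after seeing the data, the upper limit of the Egfr ratio between compartments in controls was 0.966 against 1.09. No paired analysis was possible because each group has 1 library.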
